A study of Mus musculus with 21 samples.

Results

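Inhibitory receptors of the immune system and the phosphatases they call to the membrane were examined in mouse B cell precursors. Cultures given an oncogene were compared with cultures given an empty vector, so a fall or rise here is a difference between cultures. The genes were chosen by symbol and comprised 7 receptors, Cd22, Cd72, Fcgr2b, Pirb, Pecam1, Lair1 and Cd300a, and 2 phosphatases, Ptpn6 and Inpp5d, out of 24421 genes in the deposited tables. All 9 passed the filter on low counts, which kept 12786 genes for testing.

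Each of these receptors carries an immunoreceptor tyrosine-based inhibitory motif (ITIM) in its cytoplasmic tail. Once a SRC family kinase such as LYN has phosphorylated this motif, it binds SHP-1, the tyrosine phosphatase encoded by Ptpn6, or SHIP1, the inositol phosphatase encoded by Inpp5d, which lower signaling from the B cell receptor or its precursor form. In B cell precursors, the same brake limits signaling from the pre-B cell receptor and from oncogenic tyrosine kinases.

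RNA-seq was available for primary bone marrow B cell precursors of 53BP1-/- C57BL/6 mice, a genotype that all groups shared, controls included. Cells were enriched by culture with 10 ng/ml IL-7, transduced on days 2 and 3 of culture with a MIGR1 retroviral vector, and harvested 7 to 9 days after transduction. The vector was empty (EV), carried BCR-ABL1p210, the human fusion kinase of chronic myeloid and B cell acute lymphoblastic leukemia, or carried mouse C-MYC, a transcription factor. Each condition had 2 libraries from poly(A) RNA of 5000000 cells, 6 libraries in all, and the age of the mice is not given in the sources used here. The cells came from mixed bone marrow cultures, and no sort for B cells or for transduced cells is described for these libraries.

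Totals lay between 20687092 and 24095955 counts per library. Myc, the introduced gene, was highest in the C-MYC libraries, with 37920 and 27450 counts against 3869 and 3277 in EV and 7239 and 8381 in BCR-ABL1. Trp53bp1, which encodes 53BP1, still had 342 to 723 counts per library, and counts per gene cannot show whether these came from a disrupted transcript. B precursor markers were abundant in every library, with a summed level of 3762 to 7119 CPM (counts scaled for library size). The 6 erythroid markers summed to 0.920 to 1.75 CPM. Among them, Hba-a1 and Hbb-bt were at 0 counts throughout, while Alas2 had 12 to 29 counts per library. The 0 counts alone do not show that erythroid cells were absent.

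Promoters are shown first for the 3 genes in which the motif marked below was found. Of these, Pirb fell with both oncogenes, Cd72 with BCR-ABL1 and Inpp5d with C-MYC. Each line gives the 150 bases before the gene's start, 5′ to 3′ on the gene's strand, from RefSeq on GRCm38.p6. Capitals mark GAGGAAGT or its reverse complement, the core bound by PU.1, the lymphoid and myeloid factor encoded by Spi1.
Pirb (chr7:3720383-3720532, minus strand): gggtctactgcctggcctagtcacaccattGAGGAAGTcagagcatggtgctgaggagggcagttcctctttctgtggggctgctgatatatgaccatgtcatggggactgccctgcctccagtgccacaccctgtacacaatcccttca
Cd72 (chr4:43454627-43454776, minus strand): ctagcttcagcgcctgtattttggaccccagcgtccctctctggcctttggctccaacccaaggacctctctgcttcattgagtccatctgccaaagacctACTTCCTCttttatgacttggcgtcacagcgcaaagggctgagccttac
Inpp5d (chr1:87620162-87620311, plus strand): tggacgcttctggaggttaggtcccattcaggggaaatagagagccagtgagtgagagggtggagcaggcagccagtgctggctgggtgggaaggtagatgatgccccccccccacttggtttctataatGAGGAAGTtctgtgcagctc

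The first base of the match lay 120 bases before the start in Pirb, 49 in Cd72, where it was on the opposite strand, and 20 in Inpp5d. On either strand of the 300-base window around the start, GAGGAAGT was found in these 3 of the 8 genes with a promoter entry (the 9 without Pecam1) and in 3.20% of 32851 promoters. CACGTG, the E-box bound by MYC, was in 0 of the 8 and in 7.15% of all promoters, and TTCNNNGAA, the STAT motif, was in 0 of the 8 and in 8.30%. CAGGTG, the E-box bound by E2A, was in 3 of the 8, Cd22, Pirb and Ptpn6, and in 20.2%. The motifs were chosen with the results known, no 2 of them overlap, and a match describes letters only. Spi1 itself averaged 93.7 ± 18.1 CPM (SD, n = 2) with EV, 67.5 ± 3.96 with BCR-ABL1 and 63.7 ± 6.67 with C-MYC, and passed the test against EV in C-MYC (edgeR log2 fold change -0.56, adjusted p = 0.0243) but not in BCR-ABL1 (-0.47, adjusted p = 0.0823).

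The genes lie on 5 chromosomes of GRCm38 by the GENCODE annotation. On chromosome 7, all on the minus strand, are Pirb (chr7:3711409-3720391), Lair1 (chr7:4003402-4063204) and Cd22 (chr7:30865402-30880342). Chromosome 1 carries Inpp5d (chr1:87620312-87720507, plus strand) and Fcgr2b (chr1:170958617-170976547, minus strand), and chromosome 11 carries Pecam1 (chr11:106654217-106750628, minus strand) and Cd300a (chr11:114890041-114904654, plus strand). Cd72 (chr4:43446462-43454628) and Ptpn6 (chr6:124720707-124738714) are on minus strands.

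The 9 genes spanned a wide range of levels, and SHIP1 mRNA stood at the top. By the deposited FPKM, a level per transcript length, Inpp5d averaged 127 ± 13.7 (SD, n = 2) with EV, 120 ± 8.50 with BCR-ABL1 and 78.5 ± 11.7 with C-MYC, above the other 8 in every condition. In EV it was followed by Pecam1 (79.9 FPKM), Cd72 (69.8) and Fcgr2b (65.1), neighbours whose libraries overlapped. Ptpn6 (39.5 FPKM), Lair1 (20.4), Pirb (10.8), Cd22 (6.64) and Cd300a (2.55) came next, each with libraries clear of the next gene's. In C-MYC, the libraries of Pecam1, Fcgr2b, Ptpn6 and Lair1 overlapped from each to the next, between means of 16.1 and 13.3 FPKM.

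Part of this order depended on the measure. By CPM per kilobase of annotated exon, Inpp5d again came first in each condition (76.7 in EV), but Ptpn6 rose to the second place in EV with 58.3, and Lair1 went to the last with 0.899. Relative to the median of 10242 genes, FPKM exceeded CPM per kilobase 14.1-fold for Lair1, 2.49-fold for Fcgr2b and 2.46-fold for Pecam1, and was 0.418 of it for Ptpn6. The place of Lair1 and of Ptpn6 among these genes is therefore not settled by these tables, and differences between conditions below rest on the counts.

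**Figure D1:**
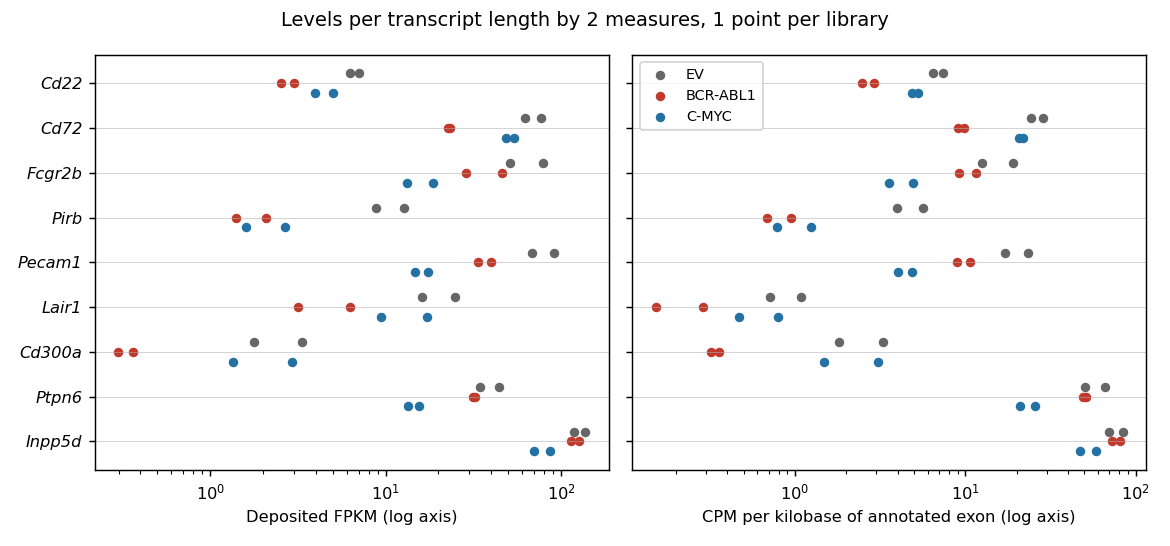
Level of each gene per transcript length in the 6 libraries, 1 point per library, as deposited FPKM (left) and as CPM per kilobase of annotated exon (right), both on log axes, with EV in grey, BCR-ABL1 in red and C-MYC in blue. Inpp5d is the highest gene by both measures, whereas Lair1 is the sixth by FPKM and the last by CPM per kilobase in EV.

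To see whether each oncogene changed the brake, its libraries were compared with EV. In BCR-ABL1, 6 of the 7 receptors fell and neither phosphatase passed the test. In C-MYC, 4 of the 7 receptors and both phosphatases fell. All 9 fitted log2 fold changes were negative in both comparisons, those of Inpp5d in BCR-ABL1 and Cd300a in C-MYC by less than their SE. Negative values made up 49.8% of all tested genes in BCR-ABL1 and 54.7% in C-MYC. Among all genes tested, 12% were called lower and 5.08% higher in BCR-ABL1, and 24.5% lower and 18.6% higher in C-MYC, by edgeR's quasi-likelihood test with adjusted p-values (Benjamini-Hochberg) under 0.05. Both comparisons share the EV libraries, so their directions are not independent of each other.

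The median log2 fold change of the 9 genes was -1.37 in BCR-ABL1, where that of all tested genes was 0.00, and -0.54 in C-MYC, where that of all tested genes was -0.08. In each comparison, the oncogene libraries lay below both EV libraries for 7 of the 9 genes, as they did for 29.7% of all tested genes in BCR-ABL1 and 39.1% in C-MYC. Cd22, Pirb and Pecam1 were called lower with both oncogenes, though the Cd22 call in C-MYC held in only 3 of 14 alternative settings. The share of all tested genes called lower with both was not computed.

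**Figure D2:**
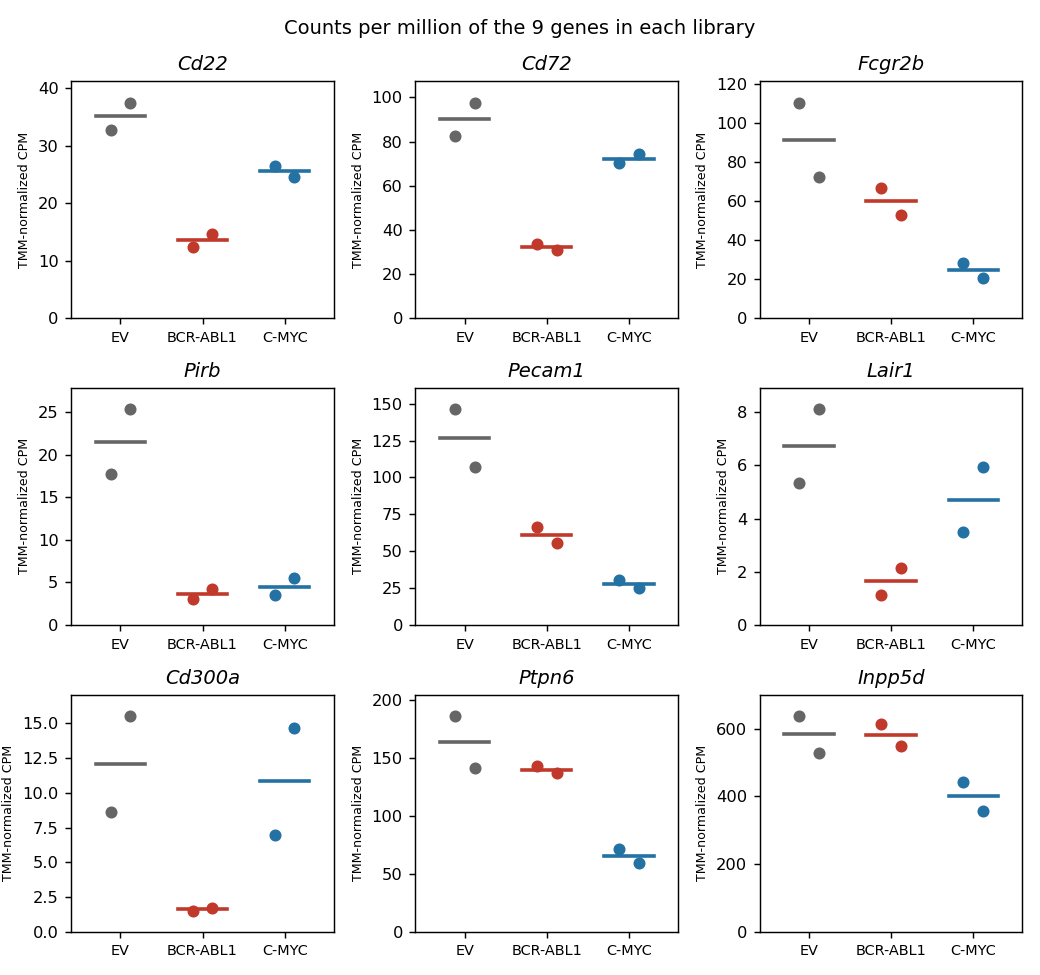
TMM-normalized CPM of the 9 genes, 1 point per library and a bar at each condition's mean over 2 libraries, with each vertical axis starting at 0. Cd22, Cd72, Lair1 and Cd300a are lowest in BCR-ABL1, whereas Fcgr2b, Pecam1, Ptpn6 and Inpp5d are lowest in C-MYC.

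Cd22 and Cd72 encode the B cell's own inhibitory coreceptors. CD22 is a sialic acid-binding lectin, and CD72 is a C-type lectin that recruits SHP-1. Cd22 had 32.8 and 37.5 CPM with EV, 12.4 and 14.7 with BCR-ABL1, and 26.5 and 24.6 with C-MYC. The groups did not overlap, with BCR-ABL1 lowest and C-MYC in between. It was 2.59-fold lower in BCR-ABL1 than in EV (log2 fold change -1.37, SE 0.16, adjusted p = 0.00162). The smaller difference in C-MYC passed the test narrowly (-0.46, SE 0.15, adjusted p = 0.0424), and 11 of 14 alternative settings lost the call, including DESeq2 (adjusted p = 0.0578) and models without C-MYC replicate 1 or 2 (0.119 and 0.188), without EV replicate 2 (0.0993) or without BCR-ABL1 replicate 1 or 2 (0.0797 and 0.0782).

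Cd72 followed the same order. It stood at 82.5 and 97.6 CPM with EV, 33.5 and 30.8 with BCR-ABL1, and 70.3 and 74.3 with C-MYC, again without overlap between groups. The difference from EV was 2.81-fold in BCR-ABL1 (log2 fold change -1.49, SE 0.13, adjusted p = 0.000764) and held in every one of 14 alternatives. In C-MYC it was 1.25-fold and did not pass (-0.32, SE 0.13, adjusted p = 0.0819), but did without EV replicate 1 (adjusted p = 0.0216) and in limma on FPKM with either pseudocount (0.0355 and 0.0330). Cd72 shares up to 1423 bases of exon with Tesk1 on the opposite strand, and whether counting used strand is not given in the sources used here. Tesk1 averaged 31.1 CPM with EV, 23.2 with BCR-ABL1 and 25.1 with C-MYC, and passed no test against EV.

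Fcgr2b encodes the inhibitory receptor for IgG, which signals through SHIP1, and Pecam1 encodes an adhesion molecule with ITIMs that is found on B cells, myeloid cells, platelets and endothelium. Fcgr2b had 110.5 and 72.6 CPM with EV, 67.0 and 53.1 with BCR-ABL1, and 28.5 and 20.7 with C-MYC. Its EV libraries were spread apart, but both stood above every oncogene library. The fall was 3.71-fold in C-MYC (log2 fold change -1.89, SE 0.25, adjusted p = 0.00100). In BCR-ABL1 the difference of 1.52-fold missed the threshold (-0.61, SE 0.24, adjusted p = 0.125), and moved with the EV libraries: without EV replicate 2 it passed (-0.88, adjusted p = 0.0155), and without EV replicate 1 it was -0.27 (adjusted p = 0.368).

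Pecam1 had 146 and 107 CPM with EV, 66.7 and 55.9 with BCR-ABL1, and 30.4 and 25.0 with C-MYC. Groups were stepped in this order without overlap. It fell 2.06-fold in BCR-ABL1 (log2 fold change -1.04, SE 0.19, adjusted p = 0.00898), a call lost without BCR-ABL1 replicate 2 (adjusted p = 0.0875). In C-MYC it fell 4.56-fold (-2.19, SE 0.19, adjusted p = 0.000329), which held in all 14 alternatives.

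Pirb, Lair1 and Cd300a encode inhibitory receptors that are best known from myeloid cells: PIR-B binds MHC class I, LAIR-1 binds collagen, and CD300A binds phospholipids of dying cells. Pirb had 17.8 and 25.3 CPM with EV, 3.08 and 4.24 with BCR-ABL1, and 3.49 and 5.52 with C-MYC. Both oncogene groups lay far below EV and overlapped each other. The falls were 5.87-fold in BCR-ABL1 (log2 fold change -2.55, SE 0.31, adjusted p = 0.00190) and 4.77-fold in C-MYC (-2.26, SE 0.30, adjusted p = 0.00114). Its counts are uncertain, since 34.0% of the 50-base stretches of its transcripts also occur in other genes, Lilra6 and Pira2 among them, against 4.38% for Fcgr2b, 3.18% for Cd300a and under 1% for the other 6.

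Lair1 was rare by counts, with 114 and 194 with EV, 24 and 52 with BCR-ABL1, and 76 and 132 with C-MYC. BCR-ABL1 lay below the rest, while C-MYC overlapped EV. It fell 4.04-fold in BCR-ABL1 (log2 fold change -2.01, SE 0.42, adjusted p = 0.0155), a call lost without BCR-ABL1 replicate 1 (adjusted p = 0.108). In C-MYC the difference was -0.51 (SE 0.39, adjusted p = 0.319).

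Cd300a was low in BCR-ABL1. It had 184 and 371 counts with EV, 32 and 41 with BCR-ABL1, and 152 and 326 with C-MYC. The BCR-ABL1 libraries were the lowest and close together, whereas EV and C-MYC overlapped and differed more within each condition than between their means. The fall in BCR-ABL1 was 7.46-fold (log2 fold change -2.90, SE 0.45, adjusted p = 0.00512). In limma on FPKM the log2 fold change was -1.38 with a pseudocount of 1 and -2.56 with 0.1. Pirb was at -2.09 and -2.56 in these 2 fits. The difference in C-MYC was -0.16 (SE 0.39, adjusted p = 0.770), which turned positive without EV replicate 2 (0.33) or C-MYC replicate 1 (0.29).

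Of the phosphatases, both fell in C-MYC and neither passed the test in BCR-ABL1. Ptpn6 had 186 and 141 CPM with EV, 143 and 137 with BCR-ABL1, and 71.7 and 59.0 with C-MYC. BCR-ABL1 overlapped EV, and C-MYC lay below both. SHP-1 mRNA was thus 2.5-fold lower in C-MYC (log2 fold change -1.32, SE 0.16, adjusted p = 0.000765), while the difference in BCR-ABL1 was -0.23 (SE 0.16, adjusted p = 0.372).

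Inpp5d had 637 and 529.5 CPM with EV, 615 and 549 with BCR-ABL1, and 443 and 358 with C-MYC. Its BCR-ABL1 libraries lay between the EV libraries, at a log2 fold change of -0.00 (SE 0.14, adjusted p = 0.990) whose sign turned with the scaling of the libraries. In C-MYC it was 1.46-fold lower (-0.54, SE 0.14, adjusted p = 0.0169), a call lost without EV replicate 1 (adjusted p = 0.0570) or C-MYC replicate 2 (0.0999).

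**Figure D3:**
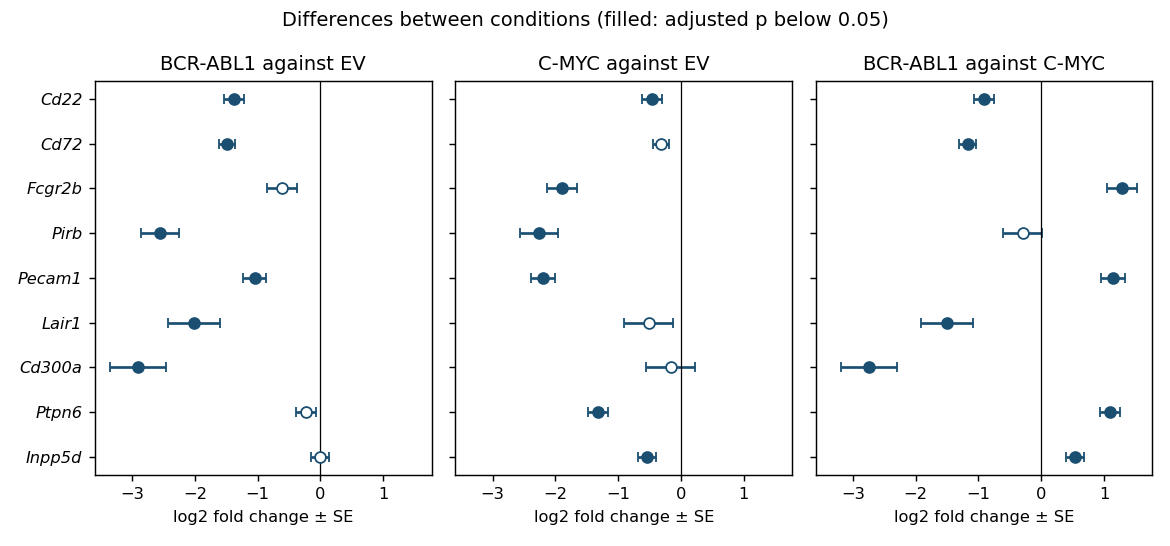
Log2 fold changes of the 9 genes with bars of 1 SE from edgeR's model of all 6 libraries, 1 panel per comparison, filled where the adjusted p is below 0.05. Against EV every point lies at or left of 0, and between the oncogenes 4 genes lie to the right with a passed test, from 0.54 for Inpp5d to 1.28 for Fcgr2b, and 4 to the left, from -0.91 for Cd22 to -2.74 for Cd300a.

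The direct comparison of the oncogenes split the 9 genes. Cd22, Cd72, Lair1 and Cd300a were lower in BCR-ABL1 than in C-MYC, and Fcgr2b, Pecam1, Ptpn6 and Inpp5d were higher. Pirb did not pass (log2 fold change -0.30, SE 0.31, adjusted p = 0.532). Across all genes tested, 11.5% were called lower and 11.9% higher in BCR-ABL1. The same 8 genes had libraries that did not overlap between the oncogenes, 4 with BCR-ABL1 below, as for 34.5% of all tested genes, and 4 with C-MYC below, as for 35.4%.

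Among the genes lower in BCR-ABL1, the difference from C-MYC was 6.69-fold for Cd300a (adjusted p = 0.00578), 2.83-fold for Lair1 (0.0371), 2.25-fold for Cd72 (0.00163) and 1.88-fold for Cd22 (0.00690). Among those higher in BCR-ABL1, it was 2.44-fold for Fcgr2b (0.00955), 2.21-fold for Pecam1 (0.00595), 2.14-fold for Ptpn6 (0.00398) and 1.45-fold for Inpp5d (0.0300). Only Cd72 and Ptpn6 stayed called in all 14 alternatives. Without BCR-ABL1 replicate 1, 2 of the 9 genes were called rather than 8, and without C-MYC replicate 2, 4 were, both in models with a lone library in a condition. The calls of Cd22 and Cd300a were lost without the former, and those of Fcgr2b, Pecam1, Lair1 and Inpp5d without either. Those of Lair1 and Inpp5d were also lost without BCR-ABL1 replicate 2 (adjusted p = 0.0553 and 0.0842), that of Lair1 without C-MYC replicate 1 (0.0552) and in limma on log2(FPKM + 1) (0.0639), and that of Cd22 in limma on FPKM (0.0688 and 0.0570 with the larger and the smaller pseudocount).

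Markers of other cell types also differed between the conditions. For these lists and those that follow, the shares of all tested genes called lower were 12% in BCR-ABL1 and 24.5% in C-MYC. Called higher were 5.08% and 18.6%. The summed level of the 15 myeloid markers found was 1733 and 1663 CPM with EV, 334 and 351 with BCR-ABL1, and 420 and 621 with C-MYC, with 14 of 15 called lower in BCR-ABL1 and 13 of 15 with C-MYC. In C-MYC, Pirb was called lower as well, whereas Lair1 and Cd300a did not pass. The 10 T and NK markers summed to 264 and 201 CPM with EV, 134 and 120 with BCR-ABL1, and 62.7 and 56.9 with C-MYC. Of these markers, 9 were called lower with BCR-ABL1 and 10 with C-MYC. Much of the oncogene sums came from Lck, which averaged 105 CPM with EV, 117 with BCR-ABL1 and 52.6 with C-MYC. Lck was the 1 marker of the list that did not pass in BCR-ABL1 (log2 fold change 0.15, adjusted p = 0.533). Cd3g averaged 19.4, 0.940 and 0.658 CPM in the same order. The 10 megakaryocyte and endothelial markers, a group that bears on Pecam1, summed to 46.1 and 57.5 CPM in EV and 10.3 to 17.7 in the oncogene libraries. Of 7 tested, 4 were called lower in each comparison. Most of the EV sum came from Pf4, at a mean of 34.4 CPM. The endothelial markers Cdh5, Kdr, Tek and Emcn had at most 15 counts in any library. Emcn, not tested, had 5 and 2 counts with EV and 9 to 12 in the oncogene libraries.

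Between replicates, the myeloid markers did not move as one. Csf1r, the receptor for M-CSF, had 1765 and 3461 counts with EV, 224 and 290 with BCR-ABL1, and 651 and 1222 with C-MYC. Adgre1, which encodes F4/80, had 579 and 1432, 66 and 135, and 205 and 509 in the same order. In each condition the second library was the higher for both, as it was for Pirb, Lair1 and Cd300a. Over all 15 myeloid markers, the second library was the higher in CPM for 6 with EV, 7 with BCR-ABL1 and 13 with C-MYC, and S100a8, a neutrophil gene, had 4324 and 1223 counts in the EV libraries. These markers were named after their values were seen, their part in the falls of the receptors was not tested, and in bulk RNA fewer cells of a type and less RNA per cell cannot be told apart.

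The B precursor markers took another course. The 12 genes summed to 7119 and 6338 CPM with EV and 7068 and 6424 with BCR-ABL1, but to 4410 and 3762 in C-MYC, where 10 of 12 were called lower against 4 lower and 1 higher in BCR-ABL1. Cd22 and Cd72 thus fell in BCR-ABL1 while the summed B precursor level there overlapped EV, and Ptpn6 and Inpp5d fell in C-MYC where that sum fell too. Of the 8 mature B markers tested, 4 were called lower and 1 higher in BCR-ABL1 and 7 lower in C-MYC, and of 5 plasma cell markers, 2 were lower in BCR-ABL1 and 1 was lower and 1 higher in C-MYC. Alas2, the erythroid marker tested, passed in neither.

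**Figure D4:**
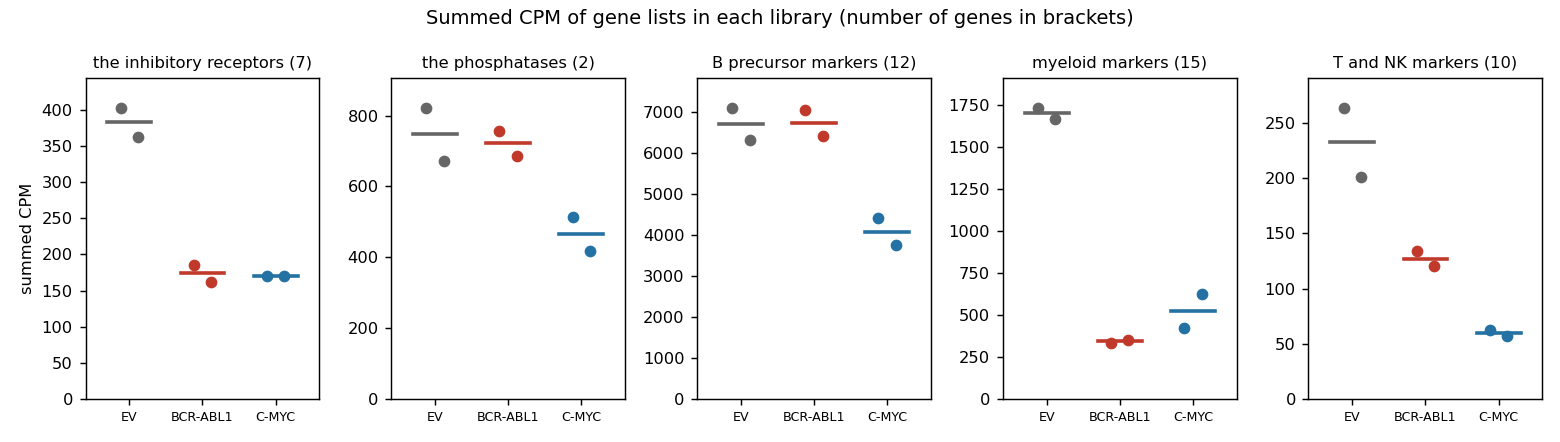
Summed CPM of the 7 receptors, the 2 phosphatases and 3 marker lists in each library, 1 point per library and a bar at each condition's mean over 2 libraries, with axes from 0. The receptors and the myeloid markers are lower in both oncogene conditions than in EV, whereas the phosphatases and the B precursor markers are lower in C-MYC and overlap EV in BCR-ABL1.

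Other inhibitory receptors were lower as well. Among 19 other ITIM receptors tested, 16 were called lower in BCR-ABL1 and 16 in C-MYC, with median log2 fold changes of -3.38 and -1.99. Pilra, an inhibitory immunoglobulin-like receptor of myeloid cells, was lower in both (-4.40 and -3.98, adjusted p = 0.000933 and 0.000486). So were Clec12a (-3.62 and -1.40, adjusted p = 0.00478 and 0.0460) and Cd300lf (-3.55 and -1.32, adjusted p = 0.00148 and 0.0165), both expressed by myeloid cells, Cd33, the myeloid sialic acid-binding lectin (-3.38 and -4.28, adjusted p = 0.00506 and 0.00103), and Cd5, a T and B1 cell receptor (-1.50 and -3.27, adjusted p = 0.0244 and 0.000807). Pilra had 6 to 11 counts in the oncogene libraries and Cd33 had 8 and 24 in C-MYC, so these sizes are imprecise. Slamf6 did not pass in BCR-ABL1 (0.33, adjusted p = 0.0739), nor Sirpa in C-MYC (-0.96, adjusted p = 0.0642). Several of these receptors are known from myeloid cells, and whether their falls relate to the myeloid marker values above was not tested.

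Activating receptors that pair with inhibitory ones, and their ITAM adaptors, fell too: 11 of 13 in each comparison. Fcer1g, the shared Fc receptor gamma chain, was lower in BCR-ABL1 (log2 fold change -3.57, adjusted p = 0.000354) and in C-MYC (-2.14, adjusted p = 0.000350). Fcgr4, an activating receptor for IgG (-4.13 and -1.54, adjusted p = 0.00128 and 0.0107), and Clec5a (-3.10 and -2.70, adjusted p = 0.0177 and 0.0120) also fell in both, while Fcgr1, another IgG receptor, passed in BCR-ABL1 (-4.78, adjusted p = 0.00863) and not in C-MYC (-1.18, adjusted p = 0.169). Counts in BCR-ABL1 were few, at 4 and 10 for Fcgr1 and 7 and 13 for Fcgr4, so these sizes are imprecise. Trem1, an activating myeloid receptor, rose in BCR-ABL1 (1.20, adjusted p = 0.0153) and fell in C-MYC (-2.57, adjusted p = 0.000556). Neither Pira2 in BCR-ABL1 (-1.66, adjusted p = 0.0906) nor Trem2 in C-MYC (0.01, adjusted p = 0.988) passed.

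Among 18 other phosphatases of receptor signaling, 8 were lower in BCR-ABL1 and 11 in C-MYC. Inpp4a (-1.43 and -2.04, adjusted p = 0.0110 and 0.00123) and Inpp4b (-0.60 and -1.84, adjusted p = 0.0433 and 0.000370), which encode inositol phosphatases like SHIP1, fell in both, as did Ubash3b (-1.91 and -1.67, adjusted p = 0.00957 and 0.00617). Ubash3a passed in BCR-ABL1 (-1.24, adjusted p = 0.00227) and Ptpn22 in C-MYC (-2.12, adjusted p = 0.00147). Ptpro, too rare for the rule that names genes, fell further in both (-3.76 and -2.53, adjusted p = 0.00157 and 0.00178). Ptpn1, a tyrosine phosphatase, did not pass in C-MYC (-0.46, adjusted p = 0.0940).

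The kinases that phosphorylate ITIMs and the inhibitory adaptors had 6 of 17 genes lower and 1 higher in BCR-ABL1 and 12 of 17 lower in C-MYC. Fgr, a SRC family kinase of myeloid cells, fell in both (-3.34 and -3.50, adjusted p = 0.00398 and 0.00136). So did Dok3, an adaptor that binds SHIP1 (-1.18 and -1.14, adjusted p = 0.000736 and 0.000350), and Lax1, a transmembrane adaptor (-0.80 and -1.83, adjusted p = 0.0223 and 0.000471). Csk passed in neither (-0.11 and -0.08, adjusted p = 0.642 and 0.668). Fyn was the gene that rose in BCR-ABL1 (0.57, adjusted p = 0.0167), and is named outside the rule for naming genes.

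Of 10 ligand genes and genes for enzymes that make ligands, 3 were called lower in BCR-ABL1 and 7 did not pass, whereas 7 were lower with C-MYC and 1, Nans, was higher. Cmah, which makes the sialic acid form that mouse CD22 prefers, fell in both (-1.65 and -2.83, adjusted p = 0.00457 and 0.000370), as did H2-K1, an MHC class I gene (-1.01 and -1.51, adjusted p = 0.00580 and 0.000524). St6gal1, which attaches the sialic acid that CD22 binds, fell in both (-1.23 and -1.24, adjusted p = 0.00654 and 0.00237), and Cd38, whose product binds CD31, the Pecam1 protein, fell in C-MYC (-2.75, adjusted p = 0.000310). B2m did not pass in BCR-ABL1 (-0.53, adjusted p = 0.126), nor Sema4d, the CD72 ligand, in C-MYC (-0.04, adjusted p = 0.895).

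The activating side of pre-B cell receptor signaling had 4 of 15 genes lower in BCR-ABL1 and 9 of 15 with C-MYC. Medians were -0.10 and -0.69, and of all tested genes, 12% and 24.5% were called lower. Pik3ap1, the BCAP adaptor to PI3K (-0.88 and -1.27, adjusted p = 0.0128 and 0.00130), and Cd79b, a signaling chain of the receptor (-0.58 and -1.05, adjusted p = 0.0457 and 0.00196), fell in both. Pik3r1 was lower in both too (-0.50 and -0.51, adjusted p = 0.0147 and 0.00588), and Prkcb fell in C-MYC (-1.26, adjusted p = 0.000350). Cd79a did not pass in BCR-ABL1 (0.28, adjusted p = 0.252), nor Plcg2 in C-MYC (-0.02, adjusted p = 0.884).

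Between the oncogenes, 7 of 15 genes of the activating pathway and 7 of 17 ITIM kinases and adaptors were called higher in BCR-ABL1. Cd79a (log2 fold change 1.12, adjusted p = 0.00324), Pik3cd (1.08, adjusted p = 0.00156) and Fyn (1.27, adjusted p = 0.000955) were among them, as Ptpn6 and Inpp5d were among the phosphatases. Of all tested genes, 11.9% were called higher and 11.5% lower in BCR-ABL1. The other ITIM receptors had 5 higher and 3 lower of 19, and the other phosphatases 6 higher and 2 lower of 18. The ligands had 2 higher of 10, and the paired activating receptors 1 higher and 6 lower of 13.

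**Figure D5:**
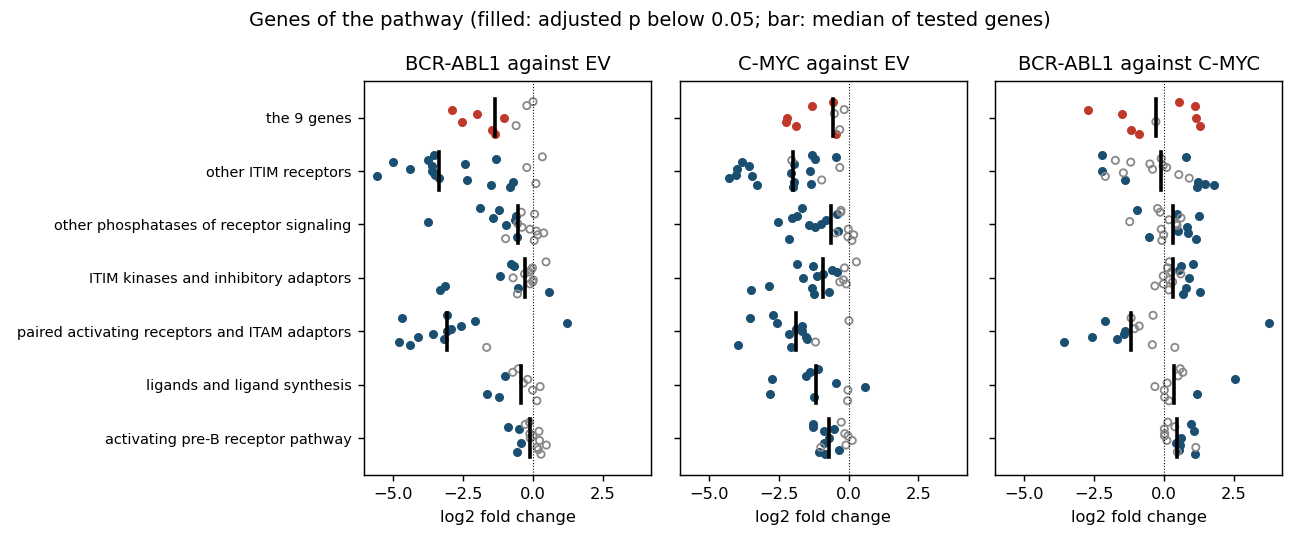
Log2 fold changes of the 9 genes and of 6 lists of genes around them, 1 point per tested gene, filled where the adjusted p is below 0.05, with a bar at the median of the tested genes of a list and 1 panel per comparison. The other ITIM receptors and the paired activating receptors have the lowest medians against EV, at -3.38 and -3.10 with BCR-ABL1 and at -1.99 and -1.87 with C-MYC.

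By Pearson's r of log2 CPM over the 6 libraries, the gene most like each of the 9 was Tal1 for Cd22 (0.994), Sntb2 for Cd72 (0.992), Ltk for Fcgr2b (0.999), Synj2 for Pirb (0.995) and Shisa5 for Pecam1 (0.998). For Lair1 it was St3gal5 (0.996), for Cd300a Tmem37 (0.999), for Ptpn6 Npc2 (0.999) and for Inpp5d Rab4b (0.998). Between 109 genes for Cd72 and 531 for Fcgr2b had an r above 0.95, so values this high are common among 6 libraries that fall into 3 conditions, and they are given as a description.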

How the data were processed

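RNA-seq of EV, BCR-ABL1 and C-MYC was analysed, 2 libraries each, and ChIP-seq libraries of the series were not used here. The authors aligned reads to GRCm38/mm10 with STAR 2.5.0, and deposited whole-number counts per gene symbol. The counting program and its strand setting are not given in the sources used here. The second deposited table holds FPKM, which the authors obtained from StringTie 1.3.0. The tables held 0 columns of other samples.

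Counts were filtered with filterByExpr, scaled by TMM and fitted with edgeR 4.0.16 (R 4.3.3) for all 6 libraries in 1 model without covariates, with the quasi-likelihood test and Benjamini-Hochberg adjustment over 12786 genes. Calls had an adjusted p below 0.05. An SE is the absolute log2 fold change divided by the square root of F. Replicates came from duplicate experiments whose independence the labels do not detail, so p-values measure the spread between these samples. The common biological coefficient of variation was 0.151, and counting error adds to it in genes as rare as Lair1, with 24 counts in a library.

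The 9 genes and the lists were chosen with earlier results of these data known. From each of 13 lists and comparison, the naming rule takes up to 3 called genes with the largest change and a mean of at least 50 counts, and the most abundant gene not called. Most rule-named marker genes are given only as counts per list and sums. Cdh5, Kdr, Tek and Emcn were named after their values were seen. Csf1r, Adgre1, Spi1 where not picked by the rule, Tesk1, Fyn between oncogene and EV, Nans, S100a8 between EV libraries, Ptpro, Trem1 in BCR-ABL1, and the second value of a gene that the rule takes in 1 comparison against EV, were named after their values were seen. Lilrb4, Ighd and Ly6g were not found under these symbols and are not analysed here, and some genes that the rule takes are not reported here. Alternatives were DESeq2 1.42.0 size factors and test, no filter, a mean of at least 50 counts, limma 3.58.1 on log2(FPKM + 1) or log2(FPKM + 0.1), only the 4 libraries compared, a replicate block, and leaving out each library. Gene exons are from GENCODE on GRCm38, and promoters from RefSeq, with chromosome 18 left out.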

Additional observations from a re-analysis of the deposited data

How the results depend on the processing

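Across the 14 alternatives in each comparison, 331 of 378 values of the 9 genes kept their direction and side of the threshold, 31 lost a call, 5 gained one and 11 changed sign, as did 29 of 2244 values of other named genes. The causes were not tested. The genes called numbered 2180 for BCR-ABL1 against EV (1336 with a mean of at least 50 counts, 665 to 2729 leaving out 1 library), 5515 for C-MYC against EV (3329 to 6077 leaving out 1 library) and 2991 between the oncogenes (4538 with only the 4 libraries compared, 618 to 4519 leaving out 1 library). Of the 9 genes, 8 were called between the oncogenes (2 to 8 leaving out 1 library). A model without 1 library assumes that the lone library left in its condition varies like the others. The log2 fold changes that changed sign had all missed the threshold in the model reported. For BCR-ABL1 against EV, Inpp5d was 0.0155 with DESeq2's size factors and with its test, 0.00506 without a filter, 0.000423 with a replicate block and -0.13 to 0.14 leaving out 1 library. Cd69 was 0.00104 in limma with a pseudocount of 0.1, 0.0579 with the block and -0.46 to 0.62 leaving out 1 library, and Alas2 was -0.15 to 1.23 leaving out 1. For C-MYC against EV, leaving out 1 library gave -0.78 to 0.33 for Cd300a, -0.30 to 0.11 for Csk, -0.56 to 0.98 for Trem2, -0.28 to 0.18 for Sema4d, -0.15 to 0.12 for Plcg2, -0.49 to 0.32 for Cd68, -0.63 to 0.74 for Alas2 and -0.37 to 0.37 for Irf4. Trem2 was -0.0195 with a mean of at least 50 counts. DESeq2's size factors and test gave 0.00579 and 0.00573 for Sema4d and 0.0208 and 0.0208 for Plcg2, and a model of only the 4 libraries gave 0.0164, 0.0313 and 0.00743 for Sema4d, Plcg2 and Irf4. Between the oncogenes, leaving out 1 library gave -0.59 to 0.0715 for Pirb, -0.22 to 0.19 for Csk, -0.26 to 0.0559 for Tesk1 and -0.0193 to 0.19 for Spi1.

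The labels do not say that equal replicate numbers mark a shared culture, and 2 numbers are too few to show a pairing. Differences between replicates 1 and 2 correlated across genes at 0.27 for EV with BCR-ABL1, 0.24 for EV with C-MYC and 0.20 for BCR-ABL1 with C-MYC. With a replicate block, 3224, 6631 and 4278 genes were called in the 3 comparisons, and 7, 6 and 8 of the 9 genes, Fcgr2b being the one gained for BCR-ABL1 against EV (adjusted p = 0.00719).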
